A study of Mus musculus with 6 samples.

Results

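The genes described here encode the proteasome: its subunits, activators, inhibitor and assembly chaperones. Members were the genes of the deposited table whose mouse symbol begins with Psma, Psmb, Psmc, Psmd, Psme, Psmf or Psmg and a number, leaving out the interferon-induced Psmb8 and Psmb9 and any predicted gene or pseudogene. The rule found 48 of the 22274 genes in the table, and 45 of them had enough counts to be tested. Psmc3ip shares the letters of the name but encodes a recombination factor and not a subunit, so it is counted among the 48 and described apart.

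The samples were epithelial cells isolated from the mouse ileum, measured by bulk RNA-seq in 3 control and 3 Ogt knockout libraries. The product of Ogt, O-GlcNAc transferase, modifies nuclear and cytoplasmic proteins with the sugar N-acetylglucosamine. The knockout mice carried floxed Ogt and Olfm4-CreER, a tamoxifen-activated recombinase driven by the promoter of a gene of intestinal stem cells, so that deletion in other epithelial cells depends on their renewal from those stem cells. At 2 months, tamoxifen was given on 3 days, and ileum was collected on day 10, when, per the labels, no Ogt-positive ileal epithelium remained in the knockouts. The control genotype is labelled LoxP and no recombinase is named for it, so whether controls carried the Cre driver is not known here. Nothing in the labels ties the libraries to different animals, and p-values therefore describe the spread among libraries, which may be technical.

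The proteasome is the main protease of the cytoplasm and nucleus for proteins tagged with ubiquitin. Its 20S core is a barrel of stacked rings, with alpha subunits at the gates and beta subunits, some of them catalytic, in the middle. The 19S particle caps the core, binds and removes ubiquitin, and unfolds substrates with a ring of ATPases, while other activators open the gate without ubiquitin. When proteasome capacity falls short, the transcription factor Nfe2l1 is known to raise many subunit genes together through antioxidant response elements in their promoters.

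The promoters are shown because Nfe2l1 and its binding element link the subunit genes to each other in that textbook circuit. RefSeq promoter sequence (build GRCm38.p6, which differs from the build of the count table) was at hand for 40 of the 48 members. These included 10 of the 14 members that rose in the knockouts. The promoters of Psmb1, Psmb2, Psmb7 and Psmd3, which also rose, were not at hand and were not searched. The element was searched on both strands as TGACNNNGC in the 250 bases before the start, and 5 members held it. Capitals mark the element, and each sequence is read 5′ to 3′ on the strand of its gene. Psmb6 (chr11:70525323-70525356, plus strand) and Psmd12 (chr11:107479278-107479315, plus strand) were among the genes that rose in the knockouts. Psmb5 (chr14:54618008-54618067, minus strand), Psmc6 (chr14:45329574-45329631, plus strand) and Psmd9 (chr5:123228134-123228189, plus strand) did not pass the test.
Psmb6: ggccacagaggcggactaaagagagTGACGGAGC
Psmd12: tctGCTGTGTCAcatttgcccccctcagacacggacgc
Psmb5: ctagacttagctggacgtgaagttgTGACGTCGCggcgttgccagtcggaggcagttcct
Psmc6: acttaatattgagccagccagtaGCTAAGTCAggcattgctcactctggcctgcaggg
Psmd9: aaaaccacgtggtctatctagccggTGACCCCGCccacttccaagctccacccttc

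In Psmb6 the element ends 1 base before the start, in Psmd9 it lies 23 to 31 bases before it and in Psmb5 39 to 47 bases before it. In Psmc6 and Psmd12 it lies near the far end of the window, 219 to 227 and 239 to 247 bases before the start. The element was present in 12.5% of the members' promoters, against 13.8% of the promoters of all tested genes that had one and 11.5% of all genes of the promoter table. With the looser letters TGANNNNGC, which include every match of the stricter form, 40% of members held a match, against 41.3% of tested genes. The CCAAT box, searched as CCAAT on both strands, was in 35% of members and 40.3% of tested genes. A match is a description of letters only, and none of these shares set the members apart from the other promoters.

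The libraries held between 14389429 and 18076486 estimated counts over genes. Ogt, the targeted gene, stood at 140.1, 127 and 128 CPM (counts scaled to a common library size, with TMM factors) in the controls and at 48.5, 43.0 and 36.02 CPM in the knockouts, a log2 fold change of -1.63 ± 0.13 (SE, edgeR adjusted p = 0.00121). The labels do not name the deleted exons, so reads from the rest of the gene may be part of the remaining level. All 6 epithelial markers examined were detected and none of them passed the test. By sign 3 were positive and 3 negative, with a median log2 fold change of -0.03. Epcam was lower in each knockout than in any control in CPM (log2 fold change -0.475, edgeR adjusted p = 0.102). Other cell types moved with the groups: the 5 tuft cell markers tested all fell (summed level 78.4 to 81.1 CPM in controls, 13.4 to 16.9 CPM in knockouts), 2 of 6 goblet markers (Clca1 and Zg16) fell, and 1 of 6 enteroendocrine markers (Sct), 1 of 6 proliferation markers (Birc5) and 2 of 6 stromal markers (Col1a1 and Col1a2) rose. Of the 6 T cell and intraepithelial lymphocyte markers Trdc rose and 5 did not pass the test, with a list median of 0.06 on the log2 scale and summed levels that overlapped between the groups. By sign alone, all 6 enteroendocrine, all 6 proliferation and all 6 stromal markers were positive (median log2 fold changes 0.70, 0.54 and 0.39). Of the 6 goblet markers 5 were negative (median -0.35). All 6 smooth muscle markers were negative (median -0.63), but none passed the test and their summed levels overlapped between the groups. Control 2 stood apart with low Paneth cell markers (a median 2.08 log2 units below the control mean) and low proliferation markers (0.56 below). In bulk RNA, a change in the share of a cell type and a change of RNA per cell cannot be told apart.

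As a group, the proteasome genes were higher in the knockouts. Of the 45 tested, 14 rose and none fell (p under 0.05 in edgeR's quasi-likelihood test after Benjamini-Hochberg adjustment over all 14005 tested genes), a share of 31.1% where 9.33% of all tested genes rose and 9.37% fell. The log2 fold change was positive for 43 of 45 members, with a median of 0.28, while the median over all tested genes was -0.05. At an unadjusted p under 0.05, 23 members differed, all of them higher except Psmd10, against 34% of all tested genes in either direction. DESeq2 called 15 members higher, with 11.8% of all genes higher, limma voom 14, with 9.53% of all genes higher, and neither called a member lower. The 3 knockout libraries lay entirely above the 3 controls in CPM for 28 members and entirely below them for 1, Psmd10, against 19.6% and 20.2% of all tested genes. The median level in controls was 71.4 CPM over the members and 17.1 CPM over all tested genes. The median SE was 0.104 for the members and 0.187 for all tested genes. These shares were not matched for level or precision.

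Member counts made up 0.365%, 0.338% and 0.341% of all counts in the controls and 0.457%, 0.447% and 0.490% in the knockouts. Summed over members, the length-scaled level was 2650, 2468 and 2454 FPKM in the controls and 3332, 3272 and 3564 FPKM in the knockouts. The groups did not overlap in either sum. Relative to the control mean, the median member stood 0.05 log2 units above, 0.04 below and 0.01 below in controls 1, 2 and 3, and 0.29, 0.21 and 0.28 above in the knockouts, with the knockout 2 library the lowest of its group. Proliferation markers ran in the same direction between the groups, with medians of 0.28, -0.56 and 0.20 in the controls and 0.66, 0.31 and 0.67 in the knockouts on the same log2 scale. Their part in the result was not tested.

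**Figure D1:**
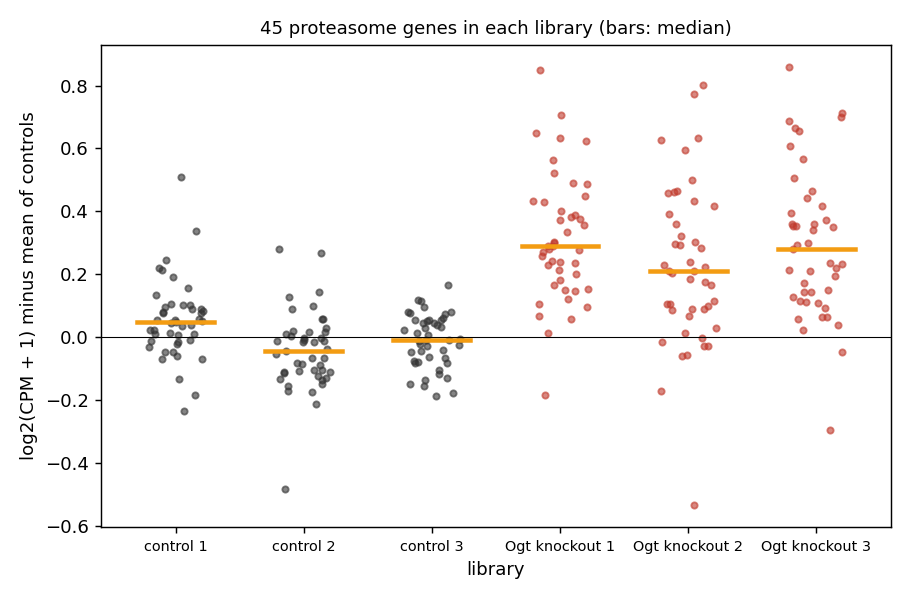
Each point is 1 of 45 proteasome genes in 1 library, plotted as log2(CPM + 1) minus that gene's mean over the 3 controls; orange bars are medians. The control medians lie between -0.04 and 0.05 and the knockout medians between 0.21 and 0.29.

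The calls did not all rest equally firmly on the libraries. Of the 14 members that rose, 8 passed the test under each of the 17 alternative settings and left-out libraries: Psma6, Psmb2, Psmb6, Psmb7, Psmc1, Psmc5, Psmd13 and Psme3. The other 6 (Psmb1, Psmb4, Psmc2, Psmd3, Psmd12 and Psmd14) lost their call when a single library was left out, while their fold changes stayed positive. For Psmd3 this held for control 3 and for each knockout; for the other 5 it held for every library except control 1. Conversely, some members that did not pass the test passed it as higher with a library left out: Psma3, Psma4, Psmb5, Psmd6 and Psmg1 without control 1 (edgeR adjusted p = 0.0281, 0.04, 0.0211, 0.0245 and 0.0264) and Psmf1 without control 2 (0.0355).

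**Figure D2:**
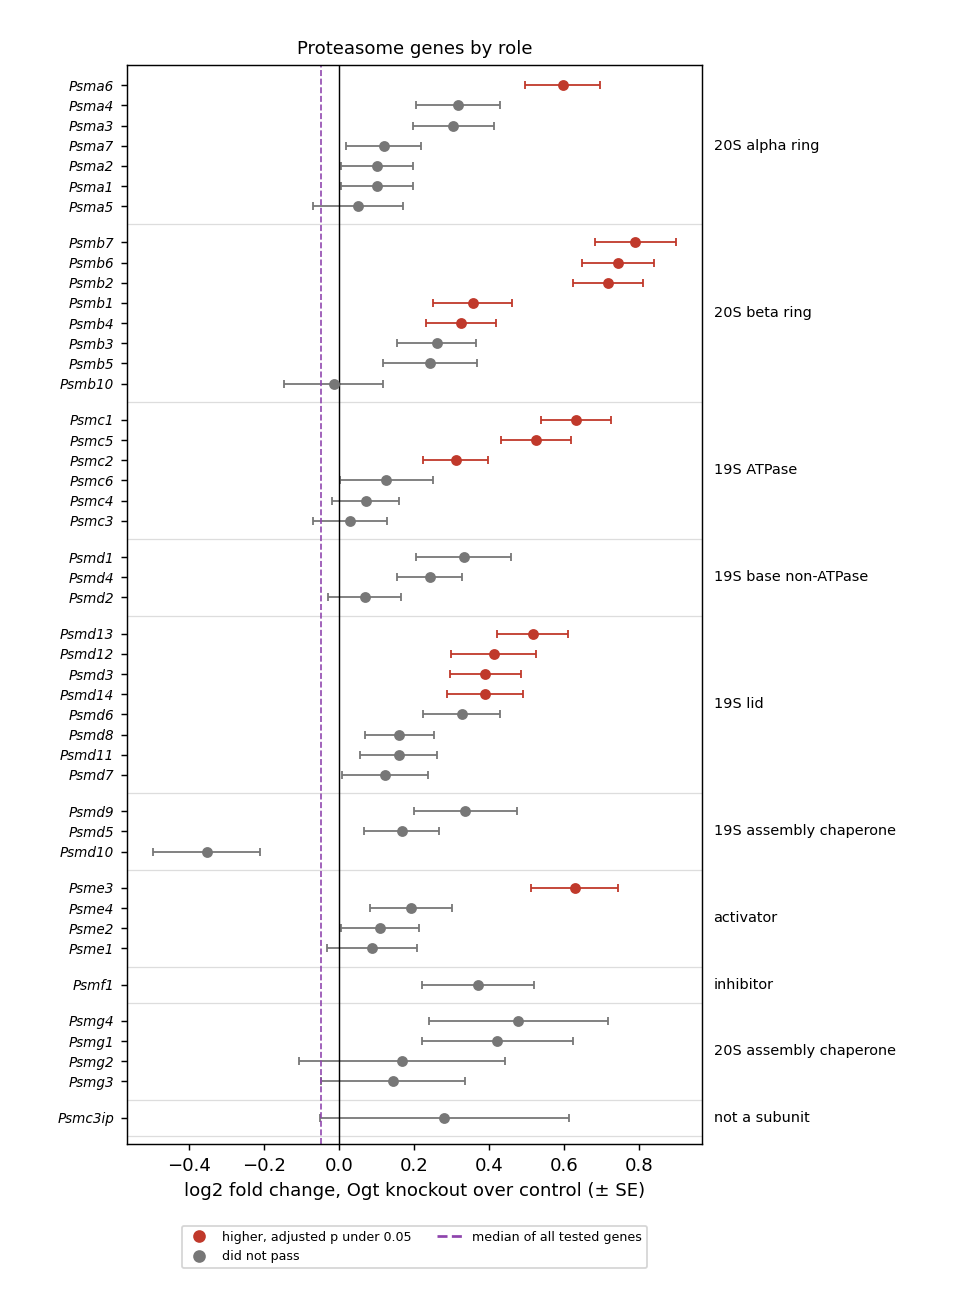
Log2 fold change of knockout over control (± SE, 3 libraries per group) for the 45 tested proteasome genes, ordered by role; red points have an adjusted p under 0.05 and the dashed line is the median of all tested genes at -0.05. All points except Psmd10 and Psmb10 lie to the right of 0, and the beta ring holds the 3 highest.

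The beta ring of the core carries the protease sites. It had 5 of its 8 tested members higher (62.5%, against 9.33% of all tested genes) and a median log2 fold change of 0.34. Psmb6, the standard beta1 subunit that cuts after acidic residues, stood at 62.3, 59.2 and 54.4 CPM in the controls and 96.1, 102.8 and 95.7 CPM in the knockouts. The groups were well apart, with a log2 fold change of 0.74 ± 0.10 (SE, 1.68-fold, edgeR adjusted p = 0.00327). Psmb7, the standard beta2 subunit that cuts after basic residues, stood at 73.0, 64.2 and 67.8 CPM in the controls and 123.7, 105.8 and 124.7 CPM in the knockouts. It had the highest fold change of any member, 0.79 ± 0.11 on the log2 scale (SE, 1.73-fold, edgeR adjusted p = 0.00384), and part of its count was shared among genes by the authors' counting, since it was not whole in any library.

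Psmb2, a structural beta subunit without protease activity, was at 61.1, 60.5 and 65.7 CPM in the controls and 97.4, 107.4 and 102.8 CPM in the knockouts. Its libraries did not overlap between the groups, and the log2 fold change was 0.72 ± 0.09 (SE, edgeR adjusted p = 0.00327). The structural subunits Psmb1 and Psmb4 rose less, with log2 fold changes of 0.36 ± 0.10 and 0.33 ± 0.09 (SE, edgeR adjusted p = 0.049 and 0.0434). Psmb1 was at 149.7, 140.2 and 128.2 CPM against 187.8, 170.9 and 176.4 CPM, and Psmb4 at 141.2, 139.2 and 141 CPM against 172.1, 173.6 and 182.2 CPM, with no overlap for either. With single libraries left out, their adjusted p reached 0.135 and 0.131, and both calls also ended when genes of low count were kept in the test.

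Psmb5, the standard beta5 subunit with chymotrypsin-like activity and the main target of proteasome inhibitor drugs, did not pass the test. Its levels were 54.9, 44.1 and 40.7 CPM in the controls and 54.5, 56.8 and 54.0 CPM in the knockouts, so that control 1 lay inside the knockout range in CPM (log2 fold change 0.24 ± 0.13, SE, edgeR adjusted p = 0.212). Thus the standard catalytic subunits of the beta1 and beta2 positions rose, while that of beta5 did not pass the test; the difference between them was not tested. Psmb3, a structural subunit, had no overlap between the groups (0.26 ± 0.10, SE, edgeR adjusted p = 0.119).

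Psmb10, the immune form of beta2, replaces Psmb7 in immunoproteasomes, which favour peptides for antigen presentation. It stood at 104.3, 138.1 and 104.1 CPM in the controls and 120.1, 112.2 and 110.8 CPM in the knockouts. The log2 fold change was -0.01 ± 0.13 (SE, edgeR adjusted p = 0.952) and turned positive under other scalings and without control 2, so no direction is given. Psmb8 and Psmb9, the immune forms of beta5 and beta1 that the rule leaves out, likewise overlapped between groups, with log2 fold changes of 0.24 ± 0.19 and 0.16 ± 0.21 (SE, edgeR adjusted p = 0.428 and 0.628).

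The balance of immune to standard subunits was compared within each library as a ratio of FPKM, which scales for gene length. For beta2, Psmb10 over Psmb7 was 1.26, 1.9 and 1.36 in the controls and 0.859, 0.938 and 0.786 in the knockouts, so the ratio was above 1 in every control and below 1 in every knockout. The means were 1.51 ± 0.35 and 0.861 ± 0.076 (SD, n = 3 each; exact two-sided permutation p = 0.1, the smallest that 3 against 3 allows, and 0.3 adjusted over the 3 ratios). For beta1, Psmb9 over Psmb6 was 0.282, 0.516 and 0.429 in the controls and 0.232, 0.285 and 0.293 in the knockouts, and control 1 lay inside the knockout range (exact permutation p = 0.3, adjusted 0.45).

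For beta5, Psmb8 over Psmb5 was 1.19, 2.57 and 2.08 in the controls and 1.68, 1.7 and 2.28 in the knockouts, with full overlap (exact permutation p = 1). Control 2, the highest of its group in all 3 ratios, also had the highest levels of Psmb8, Psmb9 and Psmb10 among the controls. The T cell and intraepithelial lymphocyte markers summed to 181.5, 311.2 and 220.8 CPM in controls 1 to 3 and 174.7, 288.8 and 225.9 CPM in the knockouts, and their part in these ratios was not tested. Without control 2 the beta2 ratio still differed between the means, by -0.45 where the difference was -0.647 with all libraries.

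**Figure D3:**
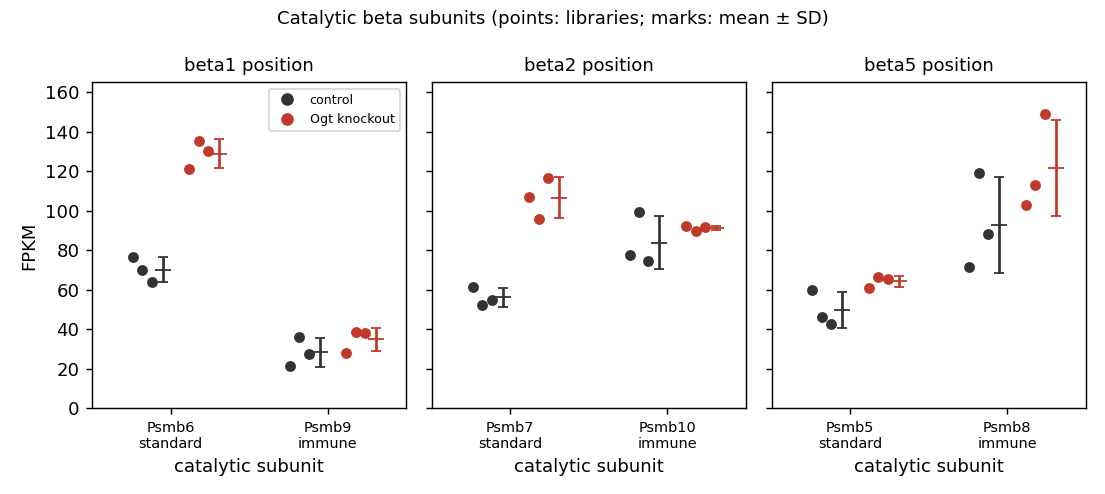
FPKM of the standard and immune catalytic subunits at the 3 catalytic positions of the core; points are libraries and marks are mean ± SD (n = 3). The standard subunits Psmb6 and Psmb7 separate widely by group and Psmb5 narrowly (at most 59.9 FPKM in controls, at least 61.0 in knockouts), whereas the immune subunits Psmb9, Psmb10 and Psmb8 overlap.

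The subunits of the alpha ring form the gate and the docking surface for caps. The ring had 1 of 7 tested members higher (14.3%, against 9.33% of all tested genes) and a median log2 fold change of 0.12. Psma6 was that member, at 103.4, 99.1 and 98.3 CPM in the controls and 157.7, 138.6 and 158.4 CPM in the knockouts. Its groups were far apart relative to their spread, with a log2 fold change of 0.60 ± 0.10 (SE, edgeR adjusted p = 0.00746). Psma4 had the highest length-scaled level of the ring, at 158.3, 132.5 and 145.2 FPKM in the controls and 199.6, 180.0 and 217.7 FPKM in the knockouts. Its groups did not overlap in CPM, but the test was not passed (log2 fold change 0.32 ± 0.11, SE, edgeR adjusted p = 0.0876). The other 5 ranged from 0.05 for Psma5 to 0.31 for Psma3, and Psma5 turned to -0.05 without knockout 1.

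The ATPases of the 19S base thread substrates into the core. They had 3 of 6 members higher (50%, against 9.33% of all tested genes), with a median log2 fold change of 0.22. Psmc1 was at 109.8, 113.8 and 117.2 CPM in the controls and 175.6, 172 and 180.5 CPM in the knockouts. Averaged over all 6 libraries it was the ATPase with the highest FPKM, but in the controls Psmc3 was higher (79.7 against 68.1 FPKM). The SD of Psmc1 was 3.67 CPM in the controls and 4.24 CPM in the knockouts (n = 3 each). Its log2 fold change was 0.63 ± 0.09 (SE, edgeR adjusted p = 0.0048). Psmc5 was at 69.3, 74.5 and 66.0 CPM in the controls and 98.6, 99.1 and 104 CPM in the knockouts (0.52 ± 0.09, SE, edgeR adjusted p = 0.00922).

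Psmc2 was at 65.7, 62.7 and 67.3 CPM in the controls and 80.5, 81.7 and 80.4 CPM in the knockouts (log2 fold change 0.31 ± 0.09, SE, edgeR adjusted p = 0.0412, reaching 0.117 with single libraries left out). The other 3 ATPases, Psmc3, Psmc4 and Psmc6, had log2 fold changes of 0.03, 0.07 and 0.13 with overlapping groups. Differences between the ATPases were not themselves tested.

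None of the 3 other base subunits passed the test. Psmd4, a ubiquitin receptor and the most abundant of them per length, was at 72.9, 73.4 and 76.1 CPM in the controls and 90.3, 87.1 and 85.9 CPM in the knockouts. The groups did not overlap (log2 fold change 0.24 ± 0.09, SE, edgeR adjusted p = 0.0876). The scaffold subunits Psmd1 and Psmd2 had log2 fold changes of 0.33 and 0.07.

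The lid holds the deubiquitinase that strips ubiquitin from substrates. It had 4 of 8 members higher (50%, against 9.33% of all tested genes) and a median log2 fold change of 0.36. For 7 members the knockouts lay above the controls without overlap, against 19.6% of all tested genes. The median SE was 0.101 for the lid and 0.187 for all tested genes. Psmd13, a structural lid subunit, was at 93.1, 93.1 and 96.1 CPM in the controls and 132.4, 127.3 and 143.9 CPM in the knockouts. Its log2 fold change was 0.52 ± 0.10 (SE, edgeR adjusted p = 0.0105). Psmd14, the deubiquitinase itself, was at 68.2, 58.8 and 66.9 CPM in the controls and 81.6, 82.9 and 89.4 CPM in the knockouts (0.39 ± 0.10, SE, edgeR adjusted p = 0.0313).

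Psmd3 was at 72.02, 76.5 and 78.6 CPM against 100.2, 104.6 and 92.8 CPM, and Psmd12 at 57.3, 47.4 and 49.7 CPM against 74.1, 62.6 and 68.8 CPM. Both are scaffold subunits of the lid, with log2 fold changes of 0.39 ± 0.10 and 0.41 ± 0.11 (SE, edgeR adjusted p = 0.0265 and 0.0404). The libraries of the groups did not overlap for either gene. With single libraries left out, the adjusted p reached 0.0972 for Psmd3, 0.12 for Psmd12 and 0.112 for Psmd14. Psmd8, the lid gene with the highest FPKM, did not pass the test (0.16 ± 0.09, SE, edgeR adjusted p = 0.253), nor did Psmd6, Psmd7 and Psmd11, at 0.33, 0.12 and 0.16. Psmd13 and several other members overlap another gene on the opposite strand of the annotation (Sirt3 for Psmd13, Nek6 for Psmb7), and the library kit as labelled does not mark strand, so reads in such overlaps cannot be told apart.

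The chaperones that assemble the 19S base included the only member whose libraries were all lower in the knockouts. Psmd10, also known as gankyrin, was at 20.6, 19.3 and 18.2 CPM in the controls and 16.9, 13.1 and 15.6 CPM in the knockouts. The difference did not pass the test (log2 fold change -0.35 ± 0.14, SE, edgeR adjusted p = 0.125). Psmd5 and Psmd9, which act at the same step, had positive values of 0.17 and 0.34 and did not pass it either. The 4 chaperones of the core, Psmg1 to Psmg4, were all under 12 CPM in every library and had a median of 0.30, with none called. Psmg1 was at 10.1, 6.91 and 6.71 CPM in the controls and 10.9, 10.7 and 10.2 CPM in the knockouts (0.42 ± 0.20, SE, edgeR adjusted p = 0.179).

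Among the activators, Psme3 rose and the other 3 tested did not pass the test. Psme3, a nuclear activator that promotes degradation without ubiquitin, was at 78.8, 61.1 and 67.8 CPM in the controls and 102.1, 107.3 and 111.6 CPM in the knockouts. The log2 fold change was 0.63 ± 0.12 (SE, 1.55-fold, edgeR adjusted p = 0.0107). Psme1 and Psme2, the interferon-induced pair that partners immunoproteasomes, had log2 fold changes of 0.09 ± 0.12 and 0.11 ± 0.10 (SE, edgeR adjusted p = 0.64 and 0.494). Psme2 had the highest FPKM of all members, 179 ± 15.1 in the controls and 214 ± 7.89 in the knockouts (SD, n = 3 each), and its counts were in part shared among genes. Psme4, an activator of the nucleus, stood at 0.19, and Psmf1, which inhibits the core in vitro, at 0.37 ± 0.15 with no overlap between groups (SE, edgeR adjusted p = 0.121).

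The 3 members below the count filter were at or near the floor of the data. Psma8, the alpha subunit of male germ cells, had 1, 0 and 1 counts in the controls and 1, 0 and 4 in the knockouts. Psmb11, the thymus subunit, had 0, 0 and 1 counts in the controls and none in the knockouts. Psme2b, a copy of Psme2 whose reads can be assigned to either gene, had about 8, 10 and 15 counts in the controls and about 5, 3 and 23 in the knockouts. Psmc3ip, the recombination factor, was at 1.83, 1.09 and 1.41 CPM against 2.14, 1.61 and 1.53 CPM, with overlap.

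Other genes of the pathway were taken from a list, of which 35 genes are reported here, 34 were found and 33 tested. Of these 33, 10 passed the test, each of them higher in the knockouts (30.3%, where 9.33% of all tested genes were higher). The median log2 fold change over the 33 was 0.17, with 22 positive and 11 negative. Groups did not overlap for 14 genes higher in the knockouts and 3 lower (Nfe2l2, Ubqln2 and Vcp), against 19.6% and 20.2% of all tested genes. By function, medians ranged from 0.32 for transcription and supply to 0.03 for proteasome-bound ubiquitin enzymes and -0.001 for Vcp and its cofactors. The median SE of the 33 was 0.116, against 0.187 for all tested genes. Of the 7 tested genes of transcription and supply, 4 rose. Hcfc1, a chromatin cofactor that OGT cleaves and modifies, was at 67.2, 55.3 and 66.3 CPM in the controls and 165.5, 192.4 and 185.5 CPM in the knockouts. It had the largest difference of the list, 1.53 ± 0.12 on the log2 scale (SE, 2.88-fold, edgeR adjusted p = 0.00121).

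Nfe2l1 itself was at 111.3, 116 and 115.6 CPM in the controls and 143.4, 141.2 and 143.3 CPM in the knockouts. The groups were narrow and apart, with a log2 fold change of 0.32 ± 0.09 (SE, edgeR adjusted p = 0.0423), but the adjusted p reached 0.116 with single libraries left out, and the call ended when any library other than control 1 was left out and when genes of low count were kept. Ddi2, the protease that releases active Nfe2l1, was at 101.3, 88.3 and 101.4 CPM against 126.4, 138.8 and 129.9 CPM (0.44 ± 0.10, SE, edgeR adjusted p = 0.0225). Its call ended without control 2, control 3, knockout 2 or knockout 3 (adjusted p up to 0.0857). Ipo9, an importin that carries proteasomes into the nucleus, also rose, by 0.58 on the log2 scale, and lost its call without control 2, knockout 1 or knockout 3 (adjusted p up to 0.0982). Akirin2 and Ngly1, listed under the same function, overlapped between the groups in CPM and did not pass the test. Their log2 fold changes were -0.18 and 0.17 (edgeR adjusted p = 0.383 and 0.297). Nfe2l2, the related factor of the oxidative stress response, was lower in each knockout than in any control, at -0.40 ± 0.12, and did not pass the test (SE, edgeR adjusted p = 0.0515). It passed as lower in the DESeq2 test (adjusted p = 0.0301), with upper quartile factors (0.0424), with a filter at 1 CPM (0.0461) and with a replicate block (0.0231), and its adjusted p ranged up to 0.19 over the other alternatives.

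Pomp, the maturation protein of the core, was at 131.7, 116.1 and 111.2 CPM in the controls and 172.7, 168.5 and 159.8 CPM in the knockouts (0.48 ± 0.11, SE, edgeR adjusted p = 0.0191). Its groups did not overlap, and the call ended when control 3 or any 1 knockout was left out (adjusted p up to 0.0691). Adrm1, a ubiquitin receptor of the 19S base outside the naming rule, was at 43.2, 49.2 and 49.2 CPM against 63.5, 69.4 and 64.2 CPM (0.48 ± 0.10, SE, edgeR adjusted p = 0.0155), and it lost its call without knockout 2 or 3 (adjusted p up to 0.0651). Uchl5, the deubiquitinase that Adrm1 recruits, was at 25.3, 19.95 and 23.0 CPM against 41.1, 36 and 35.4 CPM (0.72 ± 0.13, SE, edgeR adjusted p = 0.00992). Txnl1, a thioredoxin-like protein bound to the 19S particle, rose by 0.53 ± 0.11 (SE, edgeR adjusted p = 0.0145, or 0.0561 without knockout 3).

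Rad23b, a shuttle that carries ubiquitin-tagged proteins to the proteasome, rose by 0.52 on the log2 scale. It lost its call when any 1 knockout was left out, with adjusted p up to 0.0818. Faf2, a cofactor of the segregase Vcp at the endoplasmic reticulum, was at 63.7, 65.3 and 61.9 CPM against 91.2, 85.7 and 89.2 CPM (0.48 ± 0.09, SE, edgeR adjusted p = 0.01). Vcp, which pulls tagged proteins out of complexes, did not pass the test (-0.24, edgeR adjusted p = 0.157).

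The enzymes that activate ubiquitin, Uba1 and Uba6, had log2 fold changes of 0.28 and 0.48 and did not pass the test (edgeR adjusted p = 0.0994 and 0.0575), though Uba6 passed without control 1 (0.0252). Uba1 and Uba6 also passed as higher in the DESeq2 test (adjusted p = 0.0394 and 0.0331) and with library size alone (edgeR adjusted p = 0.0294 each).

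**Figure D4:**
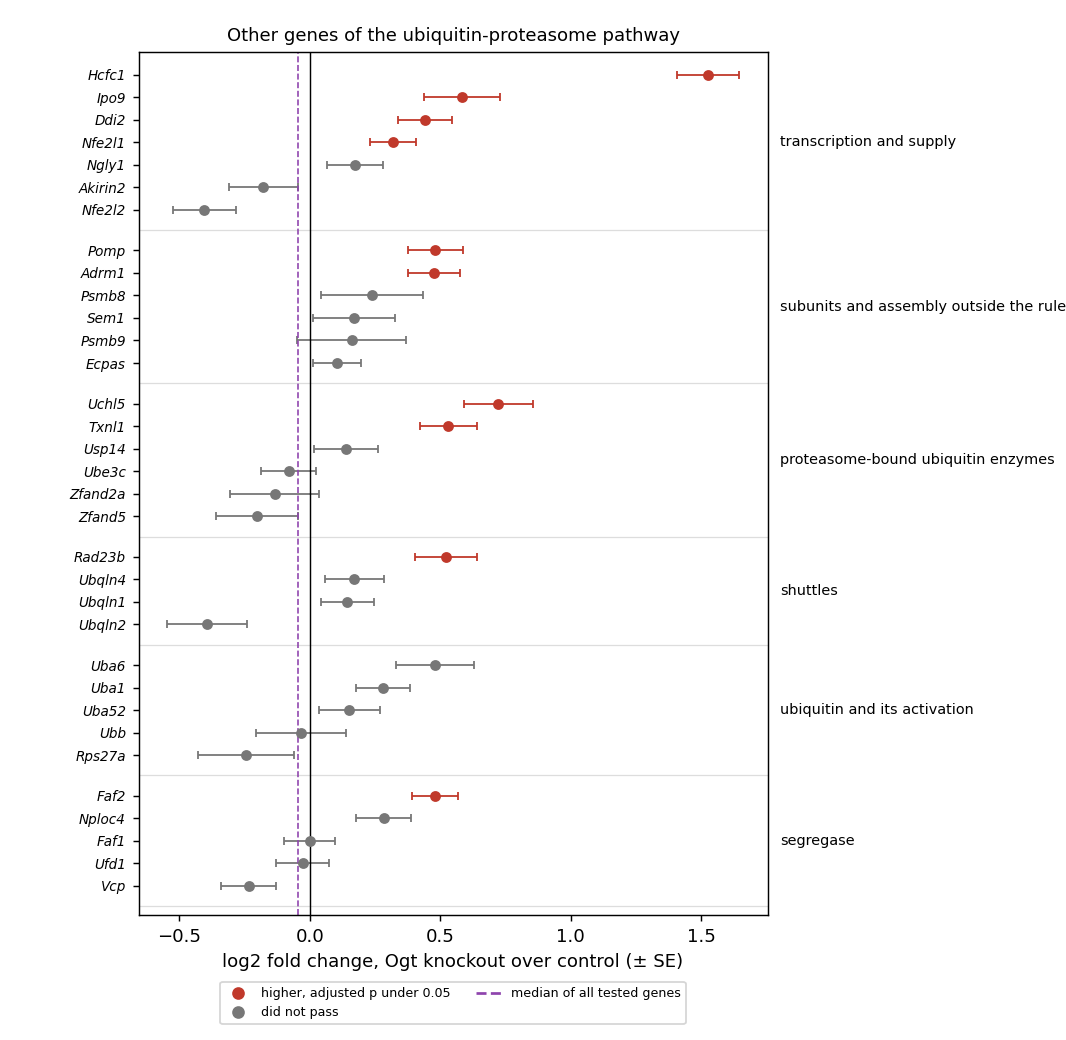
Log2 fold change of knockout over control (± SE, 3 libraries per group) for 33 other genes of the ubiquitin-proteasome pathway, ordered by function; red points have an adjusted p under 0.05. Hcfc1 lies far to the right at 1.53, while the other called genes lie between 0.32 and 0.72. Of the 33 points, 22 lie to the right of 0 and 11 to the left.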

How the data were processed

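The deposited table gives, per gene, estimated counts (41 of the 48 members have a whole count in every library, to a tolerance of 0.001) and FPKM values, which the authors made; per the submitters' processing notes the genome build was GRCm39 (mm39), and no aligner or counter is named (not given in the sources used here). IDs were named from GENCODE M21 (22219 IDs) or the deposited table (55). Estimated counts were rounded and tested in edgeR 4.0.16 (R 4.3.3; TMM, filterByExpr with a minimum count of 10, robust quasi-likelihood test, 3 against 3 libraries, Benjamini-Hochberg over 14005 genes, threshold 0.05). The total counts above set the precision; FPKM was used for comparing levels between genes. Alternatives used DESeq2 1.42.0, limma 3.58.1, other scalings, filters, pseudocounts of 0.1 and 1 on FPKM, and left-out libraries. On simulated data for this comparison (13838 genes), 59 of 100 genes with a 2-fold change were called, as were 98 of 100 with a 4-fold change, beside 14 false calls. The largest change of any member was 1.73-fold, so these rates do not show how often changes of the members' size would be called. Members and lists were chosen with earlier results of these data known. Named genes were every member past the threshold or below the count filter, the most abundant and lowest-p member of each role, and, in the pathway list, Nfe2l1, Ddi2, Pomp, Psmb8, Psmb9 and the 6 with the lowest p; further genes were named after their values were seen. Of the pathway list, Paaf1 was not analysed here, and 2 genes are not reported here and left out of its counts, so those counts do not describe the whole list.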

Additional observations from a re-analysis of the deposited data

How the results depend on the processing

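No member fell under any of the 17 alternatives, where the main test has 14 higher. The count of members higher was 21 with library size alone (14.6% of all genes higher), 20 on log2(FPKM + 0.1) or log2(FPKM + 1) (16.1% and 16.4%), 18 on FPKM without a filter (9.23%), 15 with DESeq2 (11.8%) and 11 with no count filter (7%). Leaving out 1 library gave 8 to 19 members changed, all of them higher: 19 without control 1, 10 without control 2 and 8 without each of the others. The same settings gave 1009 (without knockout 3) to 3304 genes (without control 1) changed in all, against 2619, and 3 to 11 genes of the pathway list, against 10. Fewer samples were fitted in each, and the cause of the differences between libraries was not tested.

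The members' median log2 fold change, 0.281, was 0.408 with library size alone, 0.396 on log2(FPKM + 0.1), 0.387 on log2(FPKM + 1), 0.393 on FPKM without a filter, and 0.25 to 0.369 with 1 library left out. These scalings shift all genes: the median of all tested genes, -0.05 with TMM, was 0.09 with library size alone (2045 genes higher and 859 lower, against 1307 and 1312) and 0.12 on log2(FPKM + 0.1) (1906 and 724). Measured from the median of all genes, the members' median stayed between 0.25 and 0.38 in all alternatives.

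Psmb10 turned positive with DESeq2 size factors and in the DESeq2 test (0.005 each), with library size alone (0.121), on FPKM (0.133, 0.131 and 0.133) and with libraries left out (-0.05 to 0.164). Among left-out libraries, Psmg2 ranged from -0.037 to 0.549, Psma5 from -0.054 to 0.154 and Psmc3 from -0.021 to 0.091 on the log2 scale, and the difference in the Psmb8 to Psmb5 ratio -0.437 to 0.254.

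The replicate numbers do not pair the libraries by the labels, and the same-numbered libraries' deviations correlated at 0.308, 0.289 and 0.0998, although each library correlated best with its own number. With a replicate block, 17 members were higher and 3402 genes changed in all, with a members' median of 0.297 and 12 genes of the pathway list.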
